A study of Mus musculus with 6 samples.

Results

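The acute-phase genes described here are 8 of the 57180 genes in the deposited table of inguinal white adipose tissue, the subcutaneous fat of the groin. They were taken by name: Saa1, Saa2, Saa3, Lcn2, Orm1, Orm2, Hp and Serpina3n. All 8 averaged 1 TPM or more over the libraries and entered the test, as did 15446 genes in all. TPM is the relative abundance of a transcript after correction for its length, so levels can be compared between genes. The RNA came from male wild-type mice in 2 groups of 3 samples, a high-fat diet with 0.5% hesperidin (HEP), a flavonoid glycoside of citrus peel, and the high-fat diet alone (HFD). Both groups had the fat-rich food, and the diets lasted 12 weeks. The labels name neither strain nor age. They also leave unsaid whether the samples are different mice, so a p-value here reflects the spread among 6 samples that may be technical. A control-diet group of the study was not analysed here, and read depth is unknown because TPM does not keep it.

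Acute-phase proteins are secreted into blood in larger or smaller amounts during infection, injury or inflammation. The liver is their best-known source, where interleukin-6 acting through STAT3, interleukin-1 and tumour necrosis factor acting through NF-kappaB, and the C/EBP factors and glucocorticoids switch their genes on. Fat makes several of them too, among them haptoglobin, orosomucoid, lipocalin-2 and, in mice, serum amyloid A3, which adipocytes and macrophages express. In the annotation deposited with the table, 6 of the 8 genes carried the ontology term acute-phase response, all but Lcn2 and Serpina3n, and 8 of 8 carried an extracellular term.

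Before the single genes, the makeup of the libraries is given. The adipocyte markers fitted the tissue label: 14 of 14 passed the filter, with a summed level of 39010 to 64210 TPM in HEP and 53330 to 67580 TPM in HFD. B and plasma cell markers, 10 of 10 above the filter, summed to 1107, 9.09 and 1201 TPM in HEP replicates 1 to 3 and to 8.54, 7.5 and 594 TPM in HFD replicates 1 to 3, so HEP replicates 1 and 3 and HFD replicate 3 stood apart as rich in lymphocyte transcripts. Liver transcripts stood out in another pair, with Alb, the gene for serum albumin, at 9.20, 1024 and 39.3 TPM in HEP and 664, 27.5 and 48.8 TPM in HFD. Skeletal muscle markers summed to 14710 TPM in HEP replicate 2, against 1677 and 61.9 TPM in HEP replicates 1 and 3 and 198, 710 and 92.1 TPM in HFD. In bulk tissue, fewer cells of a type and less RNA per cell cannot be told apart.

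Hesperidin was not associated with a change that passed the test in any of the 8 genes. Over all 15446 genes, 0 genes, 0.0%, had a limma adjusted p under 0.05, against 279 genes, or 1.81%, at an unadjusted p under 0.05, and the adjusted p of the 8 genes lay between 0.879 and 0.901. The log2 mean was lower in HEP for 7 of the 8 genes, all but Saa3, where 41.4% of all tested genes were lower and 58.6% higher. The median log2 fold change, HEP over HFD, of log2(TPM + 1) was -0.42 over the 8 genes and 0.07 over all tested genes. It was -0.70 over the 8 genes when HEP replicate 2 was left out, -0.68 when HFD replicate 3 was, -0.26 when HFD replicate 1 was and -0.28 when HEP replicate 3 was. The 14 adipocyte markers were all lower in HEP by their log2 mean, with a median of -0.44, and 0 of them passed the test. The groups did not overlap for 1 of the 8, Lcn2, which was lower in each HEP library, against 3.58% of all tested genes lying wholly lower in HEP and 5.46% not overlapping in either direction. The summed TPM of the 8 genes was 1675, 3913 and 1741 in HEP and 3043, 3927 and 1783 in HFD, or 2443 ± 1274 and 2918 ± 1077 TPM (mean ± SD, n = 3 each). The sum was high in 1 HEP library and 2 HFD libraries, and the other libraries of both groups held less.

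The fat depot expressed these genes over a wide range. Hp, which encodes haptoglobin, the plasma protein that captures free haemoglobin, averaged 1945 TPM over the 6 libraries and ranked 55th among the tested genes. Orm1, the gene for orosomucoid 1 (alpha-1-acid glycoprotein), a drug- and lipid-binding plasma lipocalin, averaged 415 TPM and ranked 280th. Serpina3n, a serine protease inhibitor of the group called antichymotrypsins in humans, averaged 206 TPM and ranked 548th. These 3 genes held 96.4% to 97.5% of the summed TPM of the 8 in HEP libraries and 90.4% to 98.5% in HFD libraries. Saa3 came next, with a mean of 63.5 TPM (rank 1920), followed by Saa1 (28.7 TPM, rank 4095), Saa2 (18.1 TPM, rank 5905), Lcn2 (2.38 TPM, rank 13125) and Orm2 (2.14 TPM, rank 13393). The order Hp, Orm1, Serpina3n, Saa3 held in all 6 libraries, and in HFD replicate 1 Saa1 and Saa2 stood between Serpina3n and Saa3. Lcn2 and Orm2 were the lowest of the 8 by their means, and their values overlapped, so neither stood above the other beyond their spread.

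Hp, the most abundant of the 8, had 1209, 2951 and 1257 TPM in HEP replicates 1 to 3 and 1987, 3004 and 1260.1 TPM in HFD replicates 1 to 3. The groups overlapped in part: HEP replicates 1 and 3 lay below each HFD library, and HEP replicate 2 lay between the 2 highest HFD libraries. Means were 1806 ± 992 TPM in HEP and 2084 ± 876 TPM in HFD (SD, n = 3 each), a log2 fold change of -0.25 with a standard error (SE) of 0.47 and a 95% interval of -1.38 to 0.89 (limma adjusted p = 0.901). Without HFD replicate 2 the fold change was 0.06, so its direction rested on 1 library. Orm1 had 261, 556 and 284 TPM in HEP and 532, 511 and 345 TPM in HFD. Its highest value was in HEP replicate 2 and its 2 lowest were in the other HEP libraries. The 2 highest Orm1 values were in HEP replicate 2 and HFD replicate 1, the pair high in liver transcripts. This order held for 5.23% of all tested genes. The part of liver transcripts in the Orm1 values was not tested. The log2 fold change of Orm1 was -0.39 (SE 0.34, 95% interval -1.21 to 0.43, limma adjusted p = 0.879), and leaving out 1 library moved it between -0.73 (HEP replicate 2) and -0.19 (HEP replicate 1). Serpina3n had 158, 264 and 157 TPM in HEP and 233, 275 and 151 TPM in HFD, again overlapping. Its log2 fold change was -0.19 (SE 0.31, 95% interval -0.93 to 0.55, limma adjusted p = 0.886), and without HFD replicate 2 it was -0.01.

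These 3 genes and Orm2 shared an order of libraries. In each of the 4 genes the lowest values were those of HEP replicates 1 and 3 and HFD replicate 3, the libraries rich in B cell transcripts. The same order held for 11 of the 14 adipocyte markers and for 13.7% of all tested genes. It also held for 3 of 3 tested markers of mesothelium (body cavity lining), 6 of 12 of adipose progenitors and 3 of 6 of red cells. The 3 of mesothelium were Krt8, Krt18 and Cldn15, whereas Msln, the gene for mesothelin, did not reach the filter. Among macrophage and endothelium markers it held for 2 of 13 and 0 of 8. Whether the lymphocyte content had a part in the group difference was not tested. Among the libraries poor in lymphocyte genes, Hp was 2951 TPM in the only HEP library, against 1987 and 3004 TPM in the HFD ones, and among the rich ones it was 1209 and 1257 TPM in HEP, against 1260.1 TPM in HFD. Serpina3n gave 264 TPM in HEP, against 233 and 275 TPM in HFD, among the poor libraries, and 158 and 157 TPM in HEP, against 151 TPM in HFD, among the rich. Orm1 gave 556 TPM in HEP, against 532 and 511 TPM in HFD, among the poor libraries, and 261 and 284 TPM in HEP, against 345 TPM in HFD, among the rich.

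A ratio within a library does not depend on its scaling. Relative to Adipoq, which encodes the adipocyte hormone adiponectin, Serpina3n was 0.0659, 0.0671 and 0.0729 in HEP and 0.0669, 0.0654 and 0.0524 in HFD. The ratio of Orm1 to Adipoq was 0.109, 0.142 and 0.132 in HEP and 0.153, 0.121 and 0.119 in HFD. The ratio of Hp to Adipoq was 0.505, 0.752 and 0.585 in HEP and 0.572, 0.713 and 0.436 in HFD. All 3 ratios overlapped between the groups. Over all 6 libraries the highest Hp level was 2.48 times the lowest, while the group means differed by a ratio of 0.867, HEP over HFD. The log2 fold change of Adipoq itself was -0.35, against -0.39 for Orm1, -0.25 for Hp and -0.19 for Serpina3n.

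**Figure D1:**
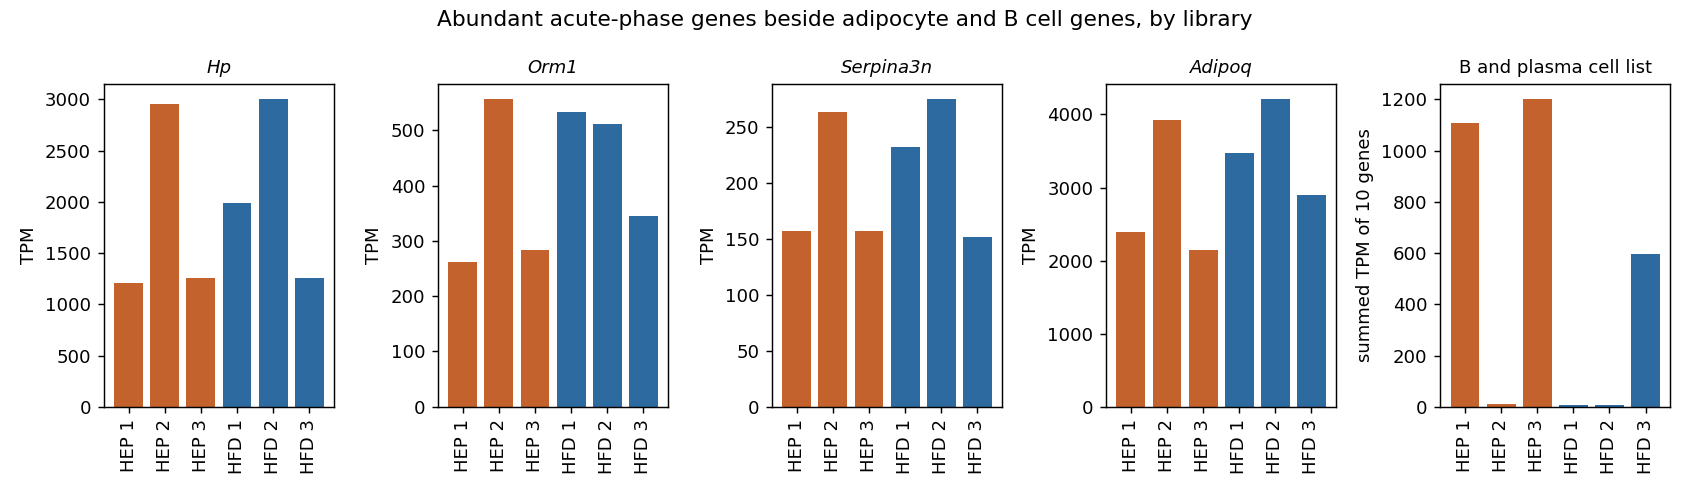
TPM of Hp, Orm1, Serpina3n and Adipoq and the summed TPM of 10 B and plasma cell genes (vertical axes, from 0) in each library, HEP in orange on the left and HFD in blue on the right. HEP replicates 1 and 3 and HFD replicate 3 were lowest for the first 4 genes and highest for the B cell list (594 to 1201 TPM, against 7.5 to 9.09 TPM).

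Serum amyloid A proteins are small apolipoproteins that join high-density lipoprotein during the acute phase. Saa1 and Saa2 are the forms made by mouse liver in large amounts, and Saa3 is the form best known from fat and macrophages. The genes lie side by side in RefSeq, in the order Saa3, Saa4, Saa1, Saa2. Saa1 and Saa2 also share most of their sequence: their transcripts were 93.9% identical over the alignment, against 60.3% for Saa1 and Saa3. Of 560 windows of 50 bases along the Saa1 transcript, 74 (13.2%) occurred whole in Saa2 and 9 (1.61%) in Saa3. The older names of Saa1 and Saa2 are interchanged in RefSeq, so reads and names could be shared out differently by another annotation, and the pair is read together here.

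Saa1 and Saa2 kept together across libraries, both high in HFD replicate 1 alone, while Saa3 did not follow them. The promoters of all 3 are shown as a description. Whether these sequences, or reads shared between Saa1 and Saa2, had a part in the levels was not tested. The 250 bases before the start of each gene are given on the gene's strand from RefSeq, build GRCm38.p6, chr7:46742981-46743230 (minus strand) for Saa1, chr7:46751583-46751832 (plus strand) for Saa2 and chr7:46715677-46715926 (minus strand) for Saa3. Capitals mark matches to the C/EBP motif TTGCNNAA on either strand.
Saa1: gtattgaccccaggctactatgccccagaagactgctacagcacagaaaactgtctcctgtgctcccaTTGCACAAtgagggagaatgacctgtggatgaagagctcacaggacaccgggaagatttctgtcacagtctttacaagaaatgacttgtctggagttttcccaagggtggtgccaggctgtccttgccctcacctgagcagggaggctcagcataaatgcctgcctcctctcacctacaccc
Saa2: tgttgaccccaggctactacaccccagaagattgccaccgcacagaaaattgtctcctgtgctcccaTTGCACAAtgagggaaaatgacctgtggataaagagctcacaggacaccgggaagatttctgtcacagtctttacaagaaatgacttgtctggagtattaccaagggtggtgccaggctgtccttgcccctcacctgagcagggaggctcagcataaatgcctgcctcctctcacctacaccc
Saa3: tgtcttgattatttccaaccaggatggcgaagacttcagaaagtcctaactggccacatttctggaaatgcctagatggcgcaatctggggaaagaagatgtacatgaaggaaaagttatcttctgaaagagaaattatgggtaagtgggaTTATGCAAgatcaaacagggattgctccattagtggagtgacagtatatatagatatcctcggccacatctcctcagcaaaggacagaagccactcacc
The Saa1 and Saa2 stretches were 94.8% identical, and Saa3 was 48.2% identical to Saa1 and 47.9% to Saa2. Each held 1 match to the C/EBP motif, TTGCACAA at -182 in Saa1 and at -183 in Saa2, and TTATGCAA, a match on the other strand, at -99 in Saa3. Positions are of the first base of the match, counted back from the start. In the same window, 9.56% of the 32851 RefSeq promoters held this motif. No match to the STAT motif TTCNNNGAA (7.02% of promoters) or the NF-kappaB motif, GGGA, any base, TT, any base and CC (0.98% of promoters), searched on both strands, was found in the 3 windows. RefSeq promoters were matched for 6 of the 8 genes, all but Orm1 and Hp, and of the other 3, Lcn2 and Orm2 held 1 C/EBP match each before the start and Serpina3n held none of the motifs. No match overlapped another.

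Saa1 had 0.17, 3.54 and 5.83 TPM in HEP replicates 1 to 3 and 148, 4.55 and 9.98 TPM in HFD replicates 1 to 3. Saa2 was listed at 0 in HEP replicate 1, at 1.36 and 5.30 TPM in HEP replicates 2 and 3, and at 95.03, 2.97 and 3.76 TPM in HFD. Both genes were high in HFD replicate 1 alone, and the other 2 HFD libraries lay among the HEP values or within a few TPM of them. Means were 3.18 ± 2.85 TPM in HEP and 54.1 ± 81.2 TPM in HFD for Saa1 and 2.22 ± 2.75 and 33.9 ± 52.9 TPM, in the same order, for Saa2 (SD, n = 3 each). The log2 fold change was -2.66 for Saa1 (SE 1.32, 95% interval -5.84 to 0.52) and -2.31 for Saa2 (SE 1.35, 95% interval -5.57 to 0.95), with a limma adjusted p of 0.879 for both. Without HFD replicate 1 the values were -1.24 and -0.82, and with a pseudocount of 0.01 in place of 1 they were -3.61 and -4.61. The spread of these genes was among the widest in the table: the SD of log2(TPM + 1) over the 6 libraries exceeded that of 98.1% of tested genes for Saa1 and 97.8% for Saa2.

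HFD replicate 1 and HEP replicate 2 were the 2 libraries high in liver transcripts, but their Saa1 and Saa2 levels differed widely. Of 19 tested hepatocyte markers, 18 had their 2 highest values in this pair, and the whole list of 20 summed to 1004 to 6929 TPM in HEP and 1450 to 4561 TPM in HFD, with none of its markers at 0 in all libraries. Most of the sum in the other libraries was Trf, the gene for transferrin. Without Trf the other 19 markers summed to 21.3, 4493 and 161 TPM in HEP and 2759, 95.5 and 174.9 TPM in HFD. The level in HFD replicate 1 was 0.657 times that in HEP replicate 2 as a median over the 19 hepatocyte markers (range 0.474 to 1.02), and it was 41.8 times as high for Saa1 and 69.9 times for Saa2. The same ratio was 0.119 to 1.46 over the 30 tested genes of the list of other acute-phase proteins. Relative to Alb, Saa1 was 0.0185, 0.00346 and 0.148 in HEP and 0.223, 0.166 and 0.205 in HFD. Saa2 relative to Alb was 0, 0.00133 and 0.135 in HEP and 0.143, 0.108 and 0.0771 in HFD, and there the groups overlapped. Saa4, the neighbouring gene for a serum amyloid A form that liver makes constitutively, was listed at 0 in HEP replicate 1, at 5.54 and 0.09 TPM in HEP replicates 2 and 3, and at 4.0, 0.19 and 0.07 TPM in HFD. Saa4 was thus high in both libraries of the pair, and Saa1 and Saa2 in 1 of them. The part of liver transcripts in the Saa1 and Saa2 values was not tested.

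Saa3 followed another order. It had 44.6, 134 and 29.5 TPM in HEP and 38.4, 123 and 10.6 TPM in HFD. One library in each group, replicate 2 of both, was above 100 TPM, and the groups overlapped. The log2 fold change was 0.57 (SE 0.94, 95% interval -1.71 to 2.86, limma adjusted p = 0.89). It turned to -0.04 when HEP replicate 2 was left out and to -0.29 when HFD replicate 3 was; leaving out HFD replicate 2 gave 1.42. Saa3 exceeded Saa1 in each HEP library, by 262.5, 37.9 and 5.07 times, whereas in HFD the ratio of Saa3 to Saa1 was 0.26, 27.1 and 1.07. Macrophage markers, 13 of 13 above the filter and none at 0 in any library, summed to 979 to 1629 TPM in HEP and 724.5 to 1813 TPM in HFD. Lyz2, the gene for a lysozyme of myeloid cells, made up much of that sum. The other 12 markers summed to 445, 501 and 429 TPM in HEP and 434, 935 and 387 TPM in HFD. That sum was highest in replicate 2 of both groups, as Saa3 was. In HEP it included Lgals3, named after its values were seen, at 143, 228 and 168 TPM. The mean of log2(TPM + 1) over all 13 markers was 5.01, 4.78 and 4.77 in HEP, highest in replicate 1. In HFD that mean was 4.56, 5.66 and 4.65, highest in replicate 2. The sum of skeletal muscle markers was highest in replicate 2 within HFD and within HEP. The part of macrophages and of muscle in the Saa3 values was not tested. Of 10 markers of mesothelium, the lining of body cavities, 3 passed the filter, and Msln, the defining gene mesothelin, was between 0.10 and 0.28 TPM in HEP and between 0.20 and 0.32 TPM in HFD.

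**Figure D2:**
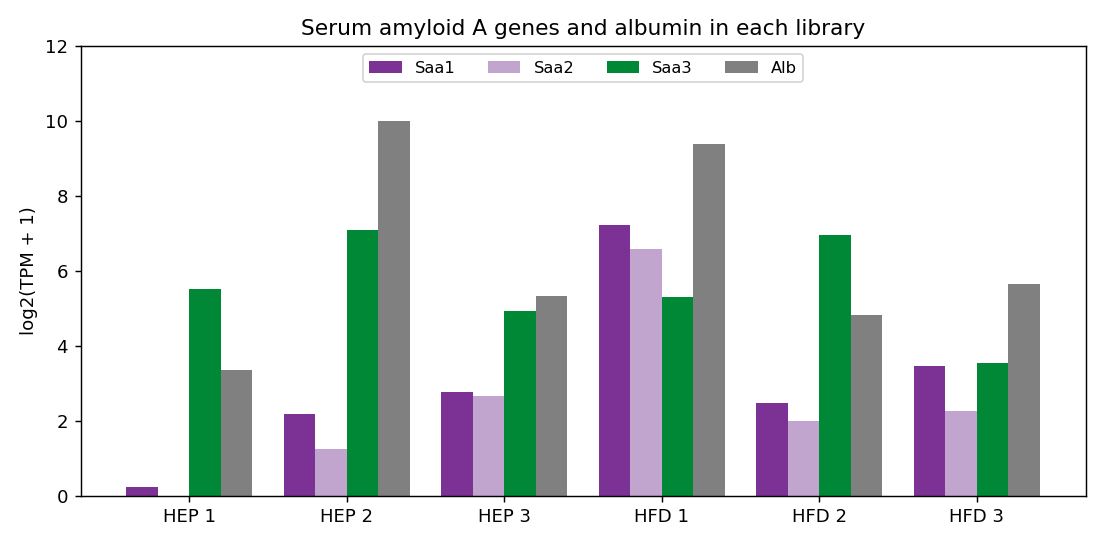
Level, as log2(TPM + 1), of Saa1, Saa2, Saa3 and the liver gene Alb in each library, HEP on the left and HFD on the right. Alb was high in HEP replicate 2 and HFD replicate 1 (1024 and 664 TPM), whereas Saa1 was 3.54 TPM in the first of them and 148 TPM in the other.

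Lcn2, the gene for lipocalin-2, which binds the iron carriers of bacteria and is made by adipocytes, epithelia and neutrophil precursors, was the lowest-expressed gene but one. It had 0.61, 1.38 and 1.18 TPM in HEP and 6.13, 3.47 and 1.48 TPM in HFD. Each HEP value lay below each HFD value, with a gap of 0.10 TPM between the nearest libraries. Means were 1.06 ± 0.3995 TPM in HEP and 3.69 ± 2.33 TPM in HFD (SD, n = 3 each), a ratio of 0.286. The log2 fold change was -1.08 (SE 0.44, 95% interval -2.14 to -0.02). The adjusted p of limma was 0.879 (0.0468 unadjusted), and 1.13% of all tested genes were lower, and 0.68% higher, in HEP at an unadjusted p under 0.05. Leaving out 1 library moved it between -1.48 without HFD replicate 3 and -0.71 without HFD replicate 1. Since the values are low, the pseudocount mattered: the log2 fold change was -1.57 with a pseudocount of 0.1.

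Neutrophil markers differed among themselves. Of the 15 markers 6 passed the filter, Ly6g was at 0 in all 6 libraries, and the sum was 41.9 to 59.4 TPM in HEP and 33.4 to 59.4 TPM in HFD. HFD replicate 1, the library highest in Lcn2, had the lowest neutrophil sum, most of which was S100a8 in several libraries. Of the 6 tested markers, 3 had a higher and 3 a lower log2 mean in HEP, with a median log2 fold change of 0.11. Only 1 of the 6, Ltf, lay wholly lower in HEP as Lcn2 did, against 3.58% of all tested genes. Ltf is the gene for lactoferrin, a protein of neutrophil granules and gland epithelia. It had 0.12, 0.58 and 0.80 TPM in HEP and 1.90, 7.24 and 1.27 TPM in HFD. Ltf is named after its values were seen, and its adjusted p in limma was 0.879. The part of neutrophils in the Lcn2 values was not tested. Mmp9, which encodes a matrix metalloproteinase that binds lipocalin-2, had 3.08, 5.88 and 2.34 TPM in HEP and 2.51, 1.95 and 1.92 TPM in HFD. Slc22a17, which encodes a reported receptor of lipocalin-2, had 9.60, 6.07 and 4.42 TPM in HEP and 11.1, 6.90 and 4.75 TPM in HFD. Neither followed the order of Lcn2, and the groups overlapped in both.

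Orm2, a second orosomucoid gene, had 1.45, 2.29 and 1.07 TPM in HEP and 4.07, 2.71 and 1.26 TPM in HFD. The groups overlapped, and the log2 fold change was -0.45 (SE 0.38, 95% interval -1.38 to 0.48, limma adjusted p = 0.879). Without HFD replicate 1, its highest library, it was -0.18. Orm1 exceeded Orm2 in each library, 180.3, 243 and 265 times in HEP and 131, 188 and 273 times in HFD. The transcripts of Orm1 and Orm2 were 91.0% identical, and 148 of 726 windows of 50 bases along Orm1 (20.4%) occurred whole in Orm2. With such a difference in level, a small share of Orm1 reads assigned to Orm2 could set the Orm2 value, so it is uncertain. Orm3, the remaining gene of the cluster, had 2.31, 2.60 and 1.07 TPM in HEP and 1.98, 1.80 and 2.01 TPM in HFD. Serpina3n was compared with Serpina3f, Serpina3g, Serpina3k and Serpina3m and shared fewer windows with them. The highest share along its transcript was 2.53%, with Serpina3g. Its other relatives were not compared.

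**Figure D3:**
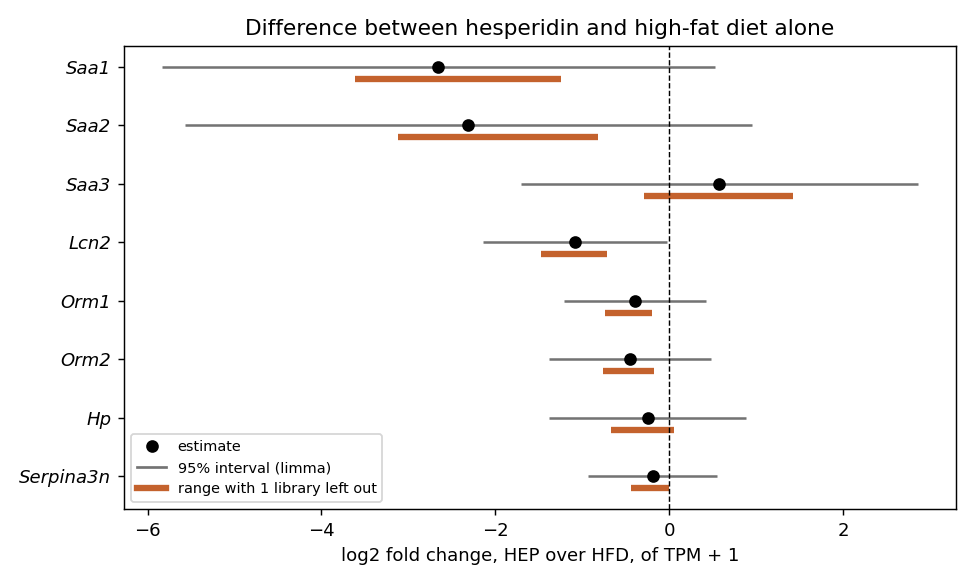
Log2 fold change of TPM + 1, HEP over HFD (horizontal axis), of the 8 acute-phase genes. Points are estimates, grey lines 95% intervals from limma, and orange bars the range when 1 library was left out. The interval of Lcn2 alone lay below 0 (-2.14 to -0.02), and the orange bars of Saa3 and Hp crossed 0.

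Beyond the 8 genes, a list of 32 other acute-phase genes had 30 tested members, of which 0 passed the test in either direction. The log2 mean was higher in HEP for 9 and lower for 21 of them, with a median log2 fold change of -0.08. The median was -0.63 without HEP replicate 2, but 0.45 once HFD replicate 1 was left out. Leaving out HEP replicate 1 gave 0.27, and leaving out HEP replicate 3 gave 0.12. In the liver-rich pair, HEP replicate 2 and HFD replicate 1, 14 of the 30 genes (46.7%) had their 2 highest values, against 5.23% of all tested genes. C3, the central complement component, which adipose tissue also makes, had 285, 175 and 270.1 TPM in HEP and 118, 143 and 164 TPM in HFD. The groups did not overlap for C3, as for 1.88% of all tested genes that lay wholly higher in HEP. C3 had a log2 fold change of 0.76 and an SE of 0.24, and the adjusted p of limma was 0.879 (0.0178 unadjusted).

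The genes given next averaged between 195 TPM (Steap4) and 2.04 TPM (Ptx3) over the 6 libraries, against 206 TPM for Serpina3n. Steap4, a metalloreductase of adipocytes, had 203, 241 and 112 TPM in HEP and 199, 252 and 165 TPM in HFD. Lbp, the lipopolysaccharide-binding protein, had 87.5, 142 and 91.7 TPM in HEP and 125, 184 and 117 TPM in HFD, a log2 fold change of -0.41 (SE 0.26). Lrg1, a leucine-rich glycoprotein of inflammation, had 112, 233 and 92.9 TPM in HEP and 181, 214 and 105 TPM in HFD. The metallothioneins Mt1 and Mt2, zinc-binding proteins induced by glucocorticoids and metals, had log2 fold changes of -0.51 (SE 0.41) and -0.83 (SE 0.59). Cp, the ferroxidase ceruloplasmin, averaged 62.2 TPM in HEP and 62.9 TPM in HFD, and Ptx3, a pentraxin, 1.88 TPM in HEP and 2.19 TPM in HFD. All of these overlapped between the groups, and the limma adjusted p was between 0.879 and 0.973.

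Among inducers, 24 of 27 genes were tested and 0 passed in either direction, 18 with a higher and 6 with a lower log2 mean in HEP and a median log2 fold change of 0.19. Il6, the gene for the main inducing cytokine, was at most 0.42 TPM in HEP and 0.16 TPM in HFD and was not tested. Il1b had 1.35, 0.42 and 2.13 TPM in HEP and 0.21, 0.81 and 1.13 TPM in HFD. Tnf had 6.03, 0.44 and 4.81 TPM in HEP and 0.50, 1.08 and 3.09 TPM in HFD. Il1b and Tnf were highest in the 3 libraries rich in B cell transcripts. So were Socs3, the feedback inhibitor that STAT3 induces, and Nfkbia, the inhibitor that NF-kappaB induces. Jak1 and Nfkb1 of the same list, named after their values were seen, had this order too. The share of all tested genes with this order was not computed. Socs3 had 11.01, 4.27 and 7.91 TPM in HEP and 3.61, 3.41 and 7.31 TPM in HFD, and Nfkbia had 101, 45.6 and 97.6 TPM in HEP and 40.0, 52.3 and 78.3 TPM in HFD. The part of lymphocytes in these values was not tested. Other genes of the list ran the other way. Cebpb, a C/EBP factor of the acute phase, had 9.77, 16.7 and 8.01 TPM in HEP and 13.3, 16.7 and 12.2 TPM in HFD, and Cebpa, a C/EBP factor of adipocytes and liver that is named after its values were seen, had 223, 381 and 184 TPM in HEP and 390, 388 and 297 TPM in HFD. Both were highest in the 3 libraries highest in Hp.

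The signal carriers varied less. Stat3 averaged 45.4 ± 12.5 TPM in HEP and 40.0 ± 5.87 TPM in HFD, Il6st, the shared receptor chain of the interleukin-6 family, 78.7 ± 10.1 and 71.3 ± 12.5 TPM, and Nr3c1, the glucocorticoid receptor, 47.1 ± 6.99 and 46.8 ± 4.78 TPM, in the same order (SD, n = 3 each). Il6ra, the ligand-binding chain, averaged 17.0 ± 4.88 TPM in HEP and 13.3 ± 2.31 TPM in HFD, and Il1r1, the interleukin-1 receptor, 10.9 ± 2.47 TPM in HEP and 11.2 ± 1.17 TPM in HFD. Cebpb averaged 11.5 ± 4.58 TPM in HEP and 14.1 ± 2.35 TPM in HFD, and Cebpd 3.40 ± 0.485 TPM in HEP and 3.38 ± 0.939 TPM in HFD. These 7 genes overlapped between the groups, with limma adjusted p-values between 0.879 and 0.995. Of 20 receptors and partners of the secreted proteins 14 were tested and 0 passed, 6 with a higher and 8 with a lower log2 mean in HEP. Their median log2 fold change was -0.12, and it was 0.01 without HEP replicate 3 or without HFD replicate 2. Cd163, the macrophage receptor that takes up haptoglobin bound to haemoglobin, had 20.02, 17.3 and 12.4 TPM in HEP and 16.7, 33.1 and 20.6 TPM in HFD. Scarb1, a lipoprotein receptor that also binds serum amyloid A, had 59.2, 63.3 and 52.1 TPM in HEP and 55.9, 81.9 and 67.0 TPM in HFD. The innate receptors Tlr2 and Tlr4, for which serum amyloid A is a reported ligand, averaged 4.27 and 11.3 TPM in HEP and 3.62 and 12.2 TPM in HFD, and Fpr2, a further reported receptor, did not reach the filter in either group (0.603 and 0.423 TPM, HEP and HFD).

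**Figure D4:**
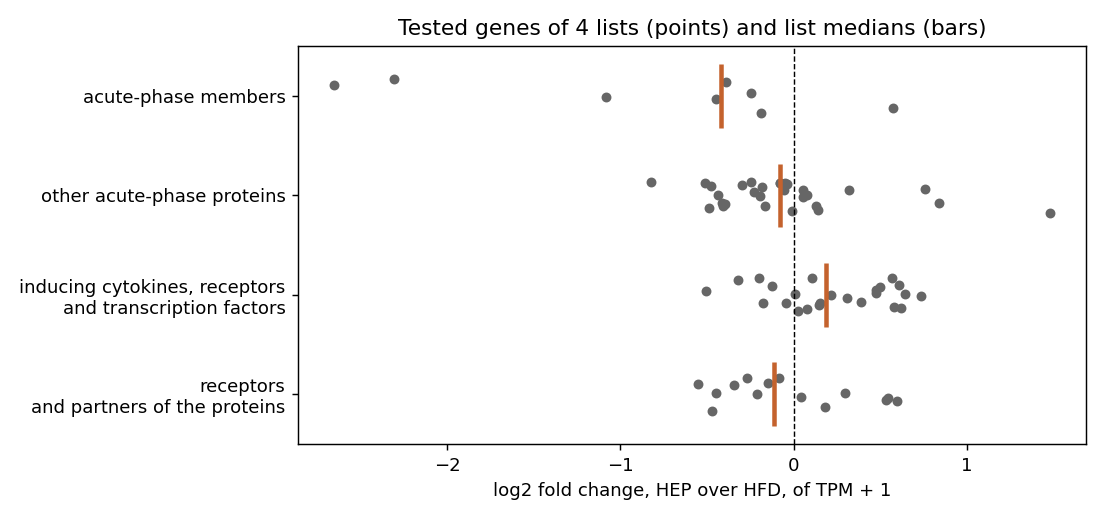
Log2 fold change of TPM + 1, HEP over HFD (horizontal axis), of the tested genes of 4 lists (points), with the list medians as orange bars. The medians were -0.42 for the 8 acute-phase genes, -0.08 for other acute-phase genes, 0.19 for inducers and -0.12 for receptors and partners, and no point passed the test.

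The genes whose profile over the 6 libraries was most like that of an acute-phase gene differed between the members. Likeness was Pearson's r of log2(TPM + 1) over 6 libraries, searched among 7912 protein-coding genes averaging 10 TPM or more, and it is a description of libraries that fall into lymphocyte-rich and lymphocyte-poor ones. For Orm1 the leading genes were Anapc13, G0s2 and Rbp4, with r of 0.997, 0.995 and 0.993; G0s2 encodes an inhibitor of adipocyte lipolysis and Rbp4 a retinol carrier. In all, 454 genes, these included, had r above 0.9 with Orm1, against 268 for Hp and 235 for Serpina3n. Hp was led by Tmem147, Timm13 and Abhd6 (r of 0.997, 0.993 and 0.990) and Serpina3n by Bola1, Efnb1 and Timm13 (r of 0.998, 0.996 and 0.991). Saa1 and Saa2 had 9 and 4 such genes, led for both by mt-Nd5, a complex I subunit encoded by the mitochondrial genome, and Cidea, a lipid droplet protein (r of 0.969 and 0.967 for Saa1 and of 0.960 and 0.919 for Saa2), followed by mt-Nd1 for Saa1 (0.950) and mt-Co1 for Saa2 (0.912). Cidea had 8.71, 12.3 and 11.7 TPM in HEP and 21.0, 13.5 and 14.8 TPM in HFD, highest in the library highest in Saa1. In that library, HFD replicate 1, mt-Nd5 was also highest, at 5306 TPM against 3284 to 3796 TPM in the others. The r values of Saa1 and Saa2 thus rest largely on 1 library. Saa3 was led by Limch1, Ifih1 and Gm49342 (r of 0.995, 0.973 and 0.969), Lcn2 by Fkbpl, Klb and Sh3tc1 (0.970, 0.967 and 0.966) and Orm2 by Ffar2, Sult1a1 and Rtp3 (0.981, 0.979 and 0.978).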

How the data were processed

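RNA of inguinal fat was sequenced in 3 HEP and 3 HFD samples, which carry 1 batch label. TRIzol extraction was followed by a TruSeq RNA library kit, per the labels' protocols, which leave strand and RNA selection unstated. The deposited values are TPM per gene and library, made by the authors, and DESeq2, RSEM, StringTie, HISAT2 and fastp are the tools listed, with no version or role, per the submitters' processing notes. The build and annotation were not given in the sources used here. TPM keeps no read depth, so no counting interval is given, a 0 is a gene listed at 0, and how the authors' tools split reads between near-identical genes is unknown. Because every library sums to the same total, abundant transcripts of other cells lower the TPM of all other genes.

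HEP was compared with HFD on log2(TPM + 1) in limma 3.58.1 (R 4.3.3) with a variance trend, two-sided, over the 15446 genes averaging 1 TPM or more. P-values were adjusted by Benjamini-Hochberg over all of them at a threshold of 0.05. Such fold changes understate low genes. The fit was tested on simulated data. The 8 members, the gene and marker lists and the tests were chosen with earlier results of these data known. Named were the 8 members, fixed genes of the lists and the 3 most alike genes per member. Of 2 rows named Serpina3h the one with the higher mean was used. Transcripts were aligned with biopython 1.88 from GENCODE M21, promoters came from RefSeq GRCm38.p6, and no coordinates were assigned to the deposited values. The alternatives were other pseudocounts, filters, scalings and weights, a replicate block, and leaving out libraries.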

Additional observations from a re-analysis of the deposited data

How the results depend on the processing

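No member passed the threshold under any of 17 alternatives. In 13 of them the fold change could move, and there 99 of 104 values for the 8 members kept their direction. The smallest adjusted p of a member was 0.12 in limma with sample quality weights. Saa3 turned to -0.32 with sample quality weights and to -0.0271 without both libraries highest in Alb, an alternative chosen after seeing the data. With 1 library left out, the log2 fold change ranged from -0.29 to 1.42 for Saa3, from -0.67 to 0.0596 for Hp, from -0.26 to 0.10 for Cp, from -0.0297 to 0.37 for Stat3, from -0.64 to 0.0162 for Lrg1 and from -0.42 to 0.13 for Steap4. The cause of these turns was not tested. The count of genes past the threshold was 0 to 1 with 1 library left out (Gm25541 without HEP replicate 2, named after its values were seen) and 0 in every other setting. At an unadjusted p under 0.05, 279 genes passed, against 576 with the replicate block, 5079 with sample quality weights and 3683 without HEP replicate 2. Lcn2 and Orm2 gave no value with a mean of at least 5 TPM. Quantile normalization moved the median log2 fold change of all genes by -0.13, the only one of the scalings run to move it by over 0.1, and the share of genes lower in HEP to 57.7%, and the directions of the 8 members were the same under each scaling. The labels do not say whether the replicate numbers pair the libraries. Deviations from the group means correlated at -0.355, 0.368 and 0.651 for numbers 1 to 3. HEP replicate 1 correlated best with HFD replicate 3 (0.503). With 3 libraries per group that differ in lymphocyte transcripts, these values cannot decide whether the numbers pair samples. With the replicate block 0 genes passed, as without it; the block cannot move a fold change in this balanced design, which was -1.08 for Lcn2. Depth is unknown, which limits what can be said of the genes near 1 TPM.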
